A study of Mus musculus with 38 samples.

Results

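In a mouse model of HFpEF, the form of heart failure in which ejection fraction is preserved, the left ventricular transcriptome was compared between treatment with TYA-018 and treatment with vehicle. Libraries were assigned by sample title, with 11 labelled HFpEF+TYA-018 and 8 labelled HFpEF+Veh, so the comparison holds 19 of the 38 libraries of the series. Every library came from the left ventricle of wild-type C57BL6 mice and has a number of its own, which the labels do not tie to a litter or batch. All HFpEF mice received a high-fat diet and L-NAME, an inhibitor of nitric oxide synthase, so the treated and vehicle groups share both hits and differ by label in the drug alone. TYA-018 is a small molecule inhibitor of the deacetylase HDAC6. The remaining libraries came from 8 non_failing mice and from 11 HFpEF mice given empagliflozin, an inhibitor of the glucose transporter SGLT2 (HFpEF+SGLT2i), and they entered the same model. Vehicle library V2523 carried liver RNA and was left out of the main test, which therefore set 11 against 7 libraries among 37 in the model. The labels call the mice female, whereas the methods of the study describe males and Y-linked transcripts were present, with Ddx3y at 18.1 counts per 1000000 (CPM) or more in every library. Whole tissue was sequenced, so fewer cells of a type and less RNA per cell cannot be told apart.

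HDAC6 is an unusual member of the histone deacetylase family because it resides mainly in the cytoplasm, where it removes acetyl groups from tubulin and other proteins. Inhibition of the enzyme leaves its gene intact, so the level of its transcript does not report on whether the drug was active. The working heart draws its energy from mitochondria, where most respiratory complexes combine nuclear and mitochondrially encoded subunits made by separate ribosomes. In HFpEF the ventricle is stiff and fills poorly, and hypertrophy, natriuretic peptide release and matrix deposition by fibroblasts are commonly described.

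The libraries held 25.6 to 57.7 M counts in HFpEF+Veh (M stands for 1000000 counts) and 21.5 to 42.6 M in HFpEF+TYA-018, and the difference in means was -0.715 M (exact permutation test, two-sided, p = 0.884, n = 7 and 11). Levels are given in CPM after TMM scaling, which sets the average gene equal between libraries. The defining transcript of hepatocytes, Alb, reached 1033 CPM in V2523 against 0.50 to 21.3 CPM in the other vehicle libraries and 0.109 to 1.88 CPM under TYA-018. V2523 exceeded every other vehicle library for all 26 hepatocyte markers, whose sum was 29.4 to 92.2 CPM in the vehicle libraries tested and 13.6 to 41.2 CPM under TYA-018. A further vehicle library, V2532, carried transcripts of fast skeletal muscle, with Myh4 at 68.0 CPM and 0 in every other vehicle and TYA-018 library. The summed level of 10 skeletal muscle markers (Ckm, which the heart also expresses, left out) was 179 CPM in V2532, 2.31 to 2.84 CPM in the other vehicle libraries and 1.78 to 4.20 CPM under TYA-018. V2532 was also the deepest vehicle library, at 57.7 M counts. Cardiomyocyte markers were abundant throughout and summed to 44734 to 52834 CPM in vehicle and 46613 to 59114 CPM in TYA-018 hearts.

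Few transcripts passed the test between TYA-018 and vehicle, and their changes were mostly modest. At an adjusted p under 0.05, the edgeR quasi-likelihood test called 196 genes out of 13801, with 122 higher and 74 lower, or 1.42% in either direction, 0.884% higher and 0.536% lower. The median log2 fold change was 0.38 among genes called higher and -0.60 among those called lower, and 2699 genes had an unadjusted p under 0.05. Only 23 genes, 0.167% of those tested, had no overlap between the libraries of the groups, 21 of them higher and 2 lower under TYA-018. Of the 196 calls, 7 fell in the set of liver transcripts and are not described. These counts depended strongly on single libraries. Without vehicle V2530, 1 gene was called, the skeletal muscle gene Tnnt3, although 2119 genes still had an unadjusted p under 0.05. Without V2529, V2527, V2528 or V2532 the counts were 35, 44, 44 and 90, and without V2521 the count was 477. Leaving out 1 TYA-018 library gave 55 calls without V2547, 81 without V2549 and 122 without V2555, against 389 without V2570 and 419 without V2550. With V2523 put back, 266 genes were called, 115 higher and 151 lower, of which 130 were among the 196. Calls are therefore given with the values by library and beside whole lists of genes.

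**Figure D1:**
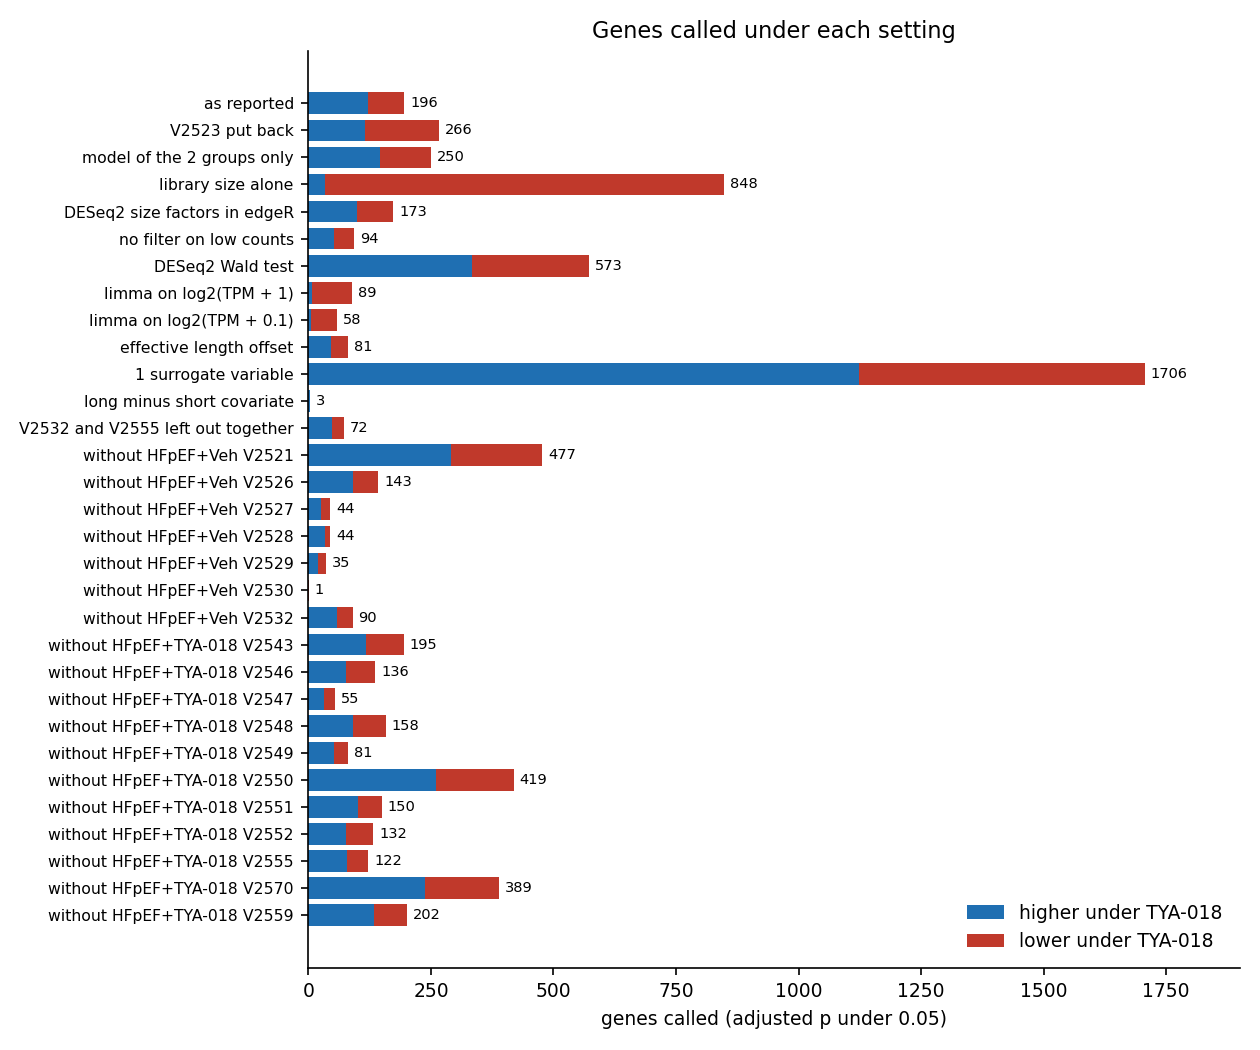
Number of genes called at an adjusted p under 0.05 (horizontal axis) in the comparison as reported and under each alternative, with genes higher under TYA-018 in blue and lower in red. The count ran from 1 without V2530 to 1706 with a surrogate variable, and scaling by library size alone turned a majority of higher calls (122 of 196) into a majority of lower calls (815 of 848).

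The split between directions also depended on scaling. Scaling by library size alone moved the median log2 fold change of all genes to -0.12 and gave 33 higher and 815 lower calls, and the limma test on log2(TPM + 1) gave 7 higher and 82 lower calls with a median of -0.08. Under TMM the median was 0.00, with 62.2% of calls higher. Directions given here are therefore relative to the average gene. The share of counts from mitochondrially encoded genes was 28.6 to 36.3% in vehicle (median 30.5%) and 29.6 to 37.4% in TYA-018 hearts (median 33.5%). The groups overlapped almost completely and differed by 1.16 percentage points (exact permutation test, two-sided, p = 0.397, n = 7 and 11).

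Fold changes followed transcript length across the transcriptome. The median log2 fold change was 0.14 among 444 genes with a median effective length of up to 500 bases, 0.11 between 500 and 1000, 0.04 between 1000 and 2000, -0.05 between 2000 and 4000, -0.10 between 4000 and 6000, and -0.15 among 491 genes over 6000 bases. Genes called higher had a median length of 1410 bases (n = 122) and those called lower 2951 bases (n = 74), beside 2038 bases over all genes. For each library, the median log2 CPM of 1614 genes over 4000 bases minus that of 2057 genes under 1000 bases was taken as a long-minus-short value. It lay between 0.24 and 0.68 in vehicle (median 0.31, highest in V2532) and between -0.34 and 0.35 under TYA-018 (median 0.21, lowest in V2555). The groups overlapped, with a difference of -0.21 (exact permutation test, two-sided, p = 0.0087, n = 7 and 11), and of -0.11 without V2532 and V2555 (p = 0.025, n = 6 and 10). This value was examined after the length pattern had been seen. With it as a covariate in edgeR, 3 genes were called, all higher, namely Ano4, Ankrd34a and Wnk2, and 1524 had an unadjusted p under 0.05. Since the long-minus-short value itself differs between the groups, this covariate and the treatment are partly confounded and cannot be told apart. Medians with the covariate are given beside those of the lists.

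**Figure D2:**
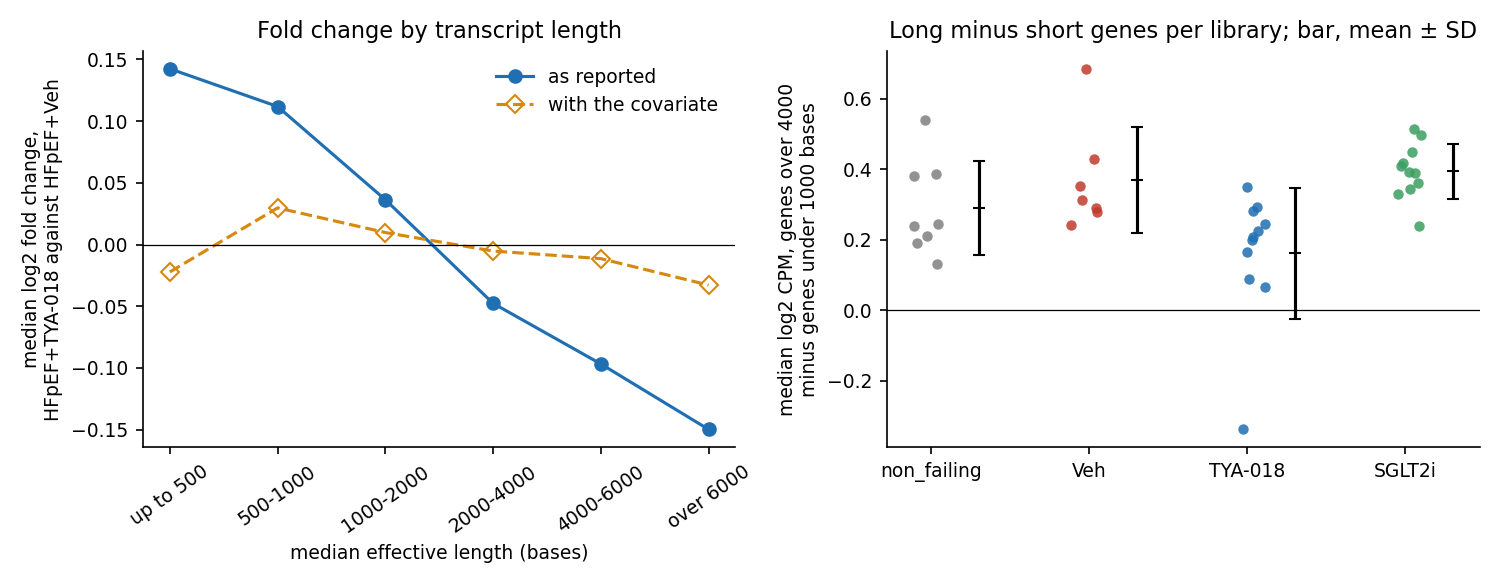
Left, median log2 fold change between HFpEF+TYA-018 and HFpEF+Veh (vertical axis) by class of effective transcript length in bases, as reported and with the long-minus-short covariate. Right, the long-minus-short value of every library by group (log2 CPM, bars for mean and SD), where V2532 is the highest vehicle point at 0.68 and V2555 the lowest TYA-018 point at -0.34.

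The target and the tubulin system were examined first. Hdac6 (chromosome X, 7930120 to 7947889, GRCm38) lay at 15.3 to 20.3 CPM in vehicle (median 16.7) and 12.9 to 23.6 CPM in TYA-018 hearts (median 16.3). The groups overlapped, and the log2 difference was -0.05 ± 0.11 (SE, adjusted p = 0.831). None of the 18 deacetylase genes was called, 4 had an unadjusted p under 0.05, and their median log2 fold change was 0.08 (0.03 with the covariate), from -0.21 for Hdac7 to 0.36 for Sirt5.

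Among 17 tested tubulin genes 3 were called, all higher (0.884% of all genes were called higher), with a median log2 fold change of 0.11 (0.11 with the covariate). Leaving out 1 library gave medians from 0.04 to 0.17, and library size scaling called 1 tubulin gene higher and 2 lower. Tubb4b, a beta-tubulin of most tissues (chromosome 2, 25222160 to 25224702), lay at 146 to 210 CPM in vehicle (median 178) and 214 to 321 CPM under TYA-018 (median 232). All 11 TYA-018 libraries exceeded every vehicle library, and the gene rose by 0.45 ± 0.09 (SE, adjusted p = 0.0224). It kept its call in 17 of 18 tests that left out 1 library and reached an adjusted p of 0.067 without V2530. With the covariate its log2 fold change was 0.41, at an adjusted p of 0.18. Tuba8, an alpha-tubulin of striated muscle, rose by 0.44 ± 0.12 (adjusted p = 0.0498), with 9 of 11 libraries above the vehicle range of 89.5 to 118 CPM. Tubg1, the gamma-tubulin that nucleates microtubules, rose by 0.26 ± 0.07 (adjusted p = 0.0487) from a median of 17.1 to 20.0 CPM. Both lay close to the threshold and kept their calls in 5 of the 18 tests that left out a library.

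Of 13 genes that modify tubulin or bind microtubules 2 were called, both lower (0.536% of all genes were called lower). Vash1, which encodes a tubulin carboxypeptidase that removes the terminal tyrosine, lay at 3.52 to 7.42 CPM in vehicle (median 4.19) and 1.37 to 4.26 CPM under TYA-018 (median 2.63). It fell by 0.84 in log2 units (SE 0.20, adjusted p = 0.0316), with 7 of 11 libraries below the vehicle range. Map4, the main microtubule-associated protein of muscle, fell by 0.17 (SE 0.04, adjusted p = 0.0487), with 9 of 11 libraries below the vehicle range of 226 to 267 CPM. The other 11 of the 13 tested members of this list did not pass, including the tubulin acetyltransferase Atat1 at 0.01 and the tyrosine ligase Ttl at 0.03. The list had a median of 0.01 with 8 of 13 positive, and of -0.07 with 5 of 13 positive with the covariate. Directions of these small medians depended on scaling, since library size alone gave -0.02 for tubulins, -0.05 for deacetylases and -0.12 for this list.

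**Figure D3:**
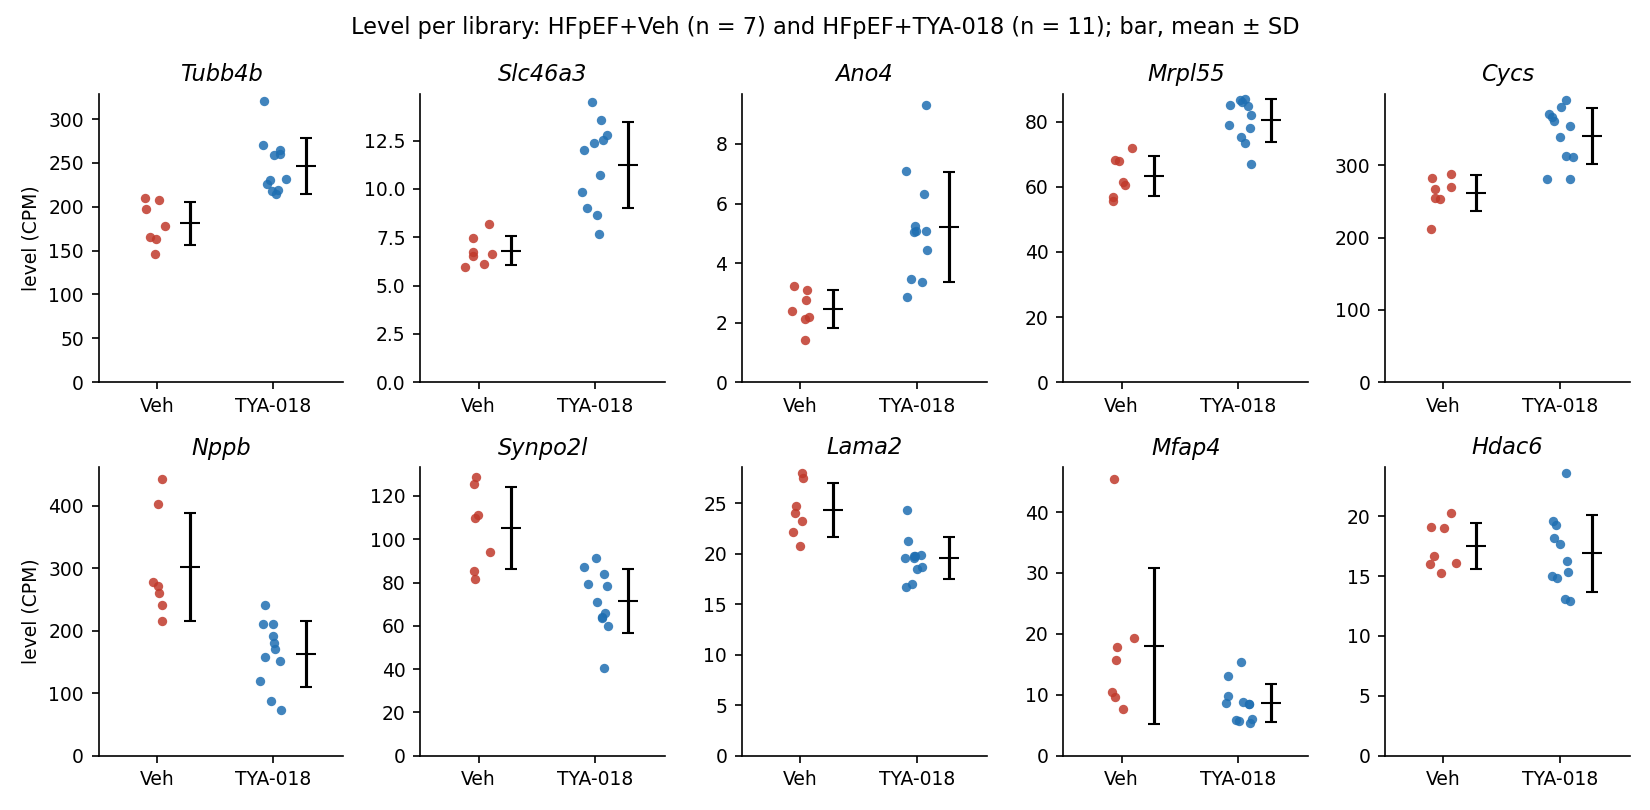
Level of 10 genes (CPM, linear axes from 0) in each vehicle (red, n = 7) and TYA-018 library (blue, n = 11), with mean and SD. All Tubb4b points of TYA-018 lie above the highest vehicle point, Nppb points lie mostly below the vehicle range, the highest Mfap4 point (45.4 CPM) is vehicle V2530, and Hdac6 overlaps.

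Nuclear genes of oxidative phosphorylation had small positive log2 fold changes that seldom passed the test. All 35 tested genes of complex I, the NADH dehydrogenase, had a positive log2 fold change, from 0.02 to 0.46 with a median of 0.19, and 1 was called. All 44 tested genes of complexes II to V with cytochrome c had one too, from 0.06 to 0.39 with a median of 0.21, and 3 were called. Over all genes 6854 of 13801 were positive and 0.884% were called higher. The respiratory genes are short, with median lengths of 530 and 426 bases, and the medians of all genes in the same length classes averaged 0.12 for both lists. With the long-minus-short covariate 21 of 35 and 31 of 44 remained positive, with medians of 0.07 and 0.05. With scaling by library size the medians were 0.07 and 0.09, against -0.12 for all genes. Leaving out any 1 library kept the medians between 0.14 and 0.22 and between 0.16 and 0.23. The calls were less stable. In edgeR both lists had 0 calls without V2527, V2528, V2529, V2530, V2532, V2547 or V2555, each left out alone. Library size scaling and the covariate also gave 0 calls in both lists.

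Ndufs7, a core iron-sulfur subunit of complex I, lay at 310 to 422 CPM in vehicle (median 374) and 393 to 502 CPM under TYA-018 (median 465), and rose by 0.29 ± 0.08 (SE, adjusted p = 0.0479). The assembly-related subunit Ndufa12 lay at 214 to 259 CPM in vehicle (median 244) and 239 to 337 CPM under TYA-018 (median 287), with 10 of 11 libraries above the vehicle range, and just missed the threshold at 0.29 ± 0.08 (adjusted p = 0.0526). Cycs, which encodes cytochrome c, the electron carrier between complexes III and IV, lay at 212 to 287 CPM in vehicle (median 268) and 281 to 390 CPM under TYA-018 (median 354). It rose by 0.38 ± 0.09 (adjusted p = 0.0332), and 9 of 11 libraries exceeded the vehicle range. Atp5g1, a subunit of the ATP synthase ring, rose by 0.35 ± 0.09 (adjusted p = 0.0358) from a median of 816 to 1044 CPM. Cox8a, a small subunit of cytochrome c oxidase, rose by 0.24 ± 0.06 (adjusted p = 0.0487) from a median of 97.8 to 111 CPM, and its lowest vehicle value, 79.3 CPM, was that of V2532. The 13 mitochondrially encoded genes had a median of 0.14 (0.20 with the covariate), and 0 were called in edgeR (3 with an unadjusted p under 0.05).

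Though not by share (tubulins had 3 of 17), genes for the mitochondrial ribosome gave the most calls of any list in the main test. Of 77 tested, 76 had a positive log2 fold change, 10 were called, all higher, and 57 had an unadjusted p under 0.05, with a median of 0.25 and a range of -0.10 to 0.40. Over all genes 0.884% were called higher. The medians of all genes in the same length classes averaged 0.08. With the covariate 70 of 77 were positive with a median of 0.14, and with library size scaling 66 of 77 were positive with a median of 0.13, in both cases with 0 calls in edgeR. The number called fell to 0 without V2529 or V2530 and to 1 without V2527 or V2532, while the median stayed between 0.22 and 0.28 when any 1 library was left out. The mean level of the list, on a log2 scale relative to the vehicle mean, ran from -0.11 to 0.15 in vehicle and from 0.06 to 0.39 under TYA-018, so the ranges overlapped between 0.06 and 0.15.

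Mrpl55, which encodes a protein of the large mitochondrial subunit, lay at 55.7 to 71.8 CPM in vehicle (median 61.5) and 66.9 to 87.1 CPM under TYA-018 (median 82.1), with 10 of 11 libraries above the vehicle range, and rose by 0.35 ± 0.07 (SE, adjusted p = 0.0224). Mrps15 of the small subunit rose by 0.33 ± 0.07 (adjusted p = 0.0254), from a median of 39.0 to 50.1 CPM. Mrpl2 and Mrpl34, both of the large subunit, rose by 0.35 ± 0.08 and 0.40 ± 0.09 (adjusted p = 0.03 for both). Each of these genes had at least 8 of 11 TYA-018 libraries above every vehicle library. Genes of the cytosolic ribosome were also examined. Of 83 tested, 71 were positive with a median of 0.07, and 1 was called, beside 0.884% of all genes called higher. This was Rps2, at 0.29 ± 0.07 (adjusted p = 0.036). All genes of similar length averaged 0.11, and the list median was -0.05 with library size scaling, -0.14 with the covariate and -0.01 without V2532.

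Mitochondrial import and cristae genes were positive in 39 of 40 cases with a median of 0.22 (0.14 with the covariate), and 2 were called higher, beside 0.884% of all genes. Hspe1, the co-chaperonin of the matrix, rose by 0.33 ± 0.09 (SE, adjusted p = 0.0413), and Timm21, a component of the inner membrane translocase, by 0.51 ± 0.13 (adjusted p = 0.0451).

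**Figure D4:**
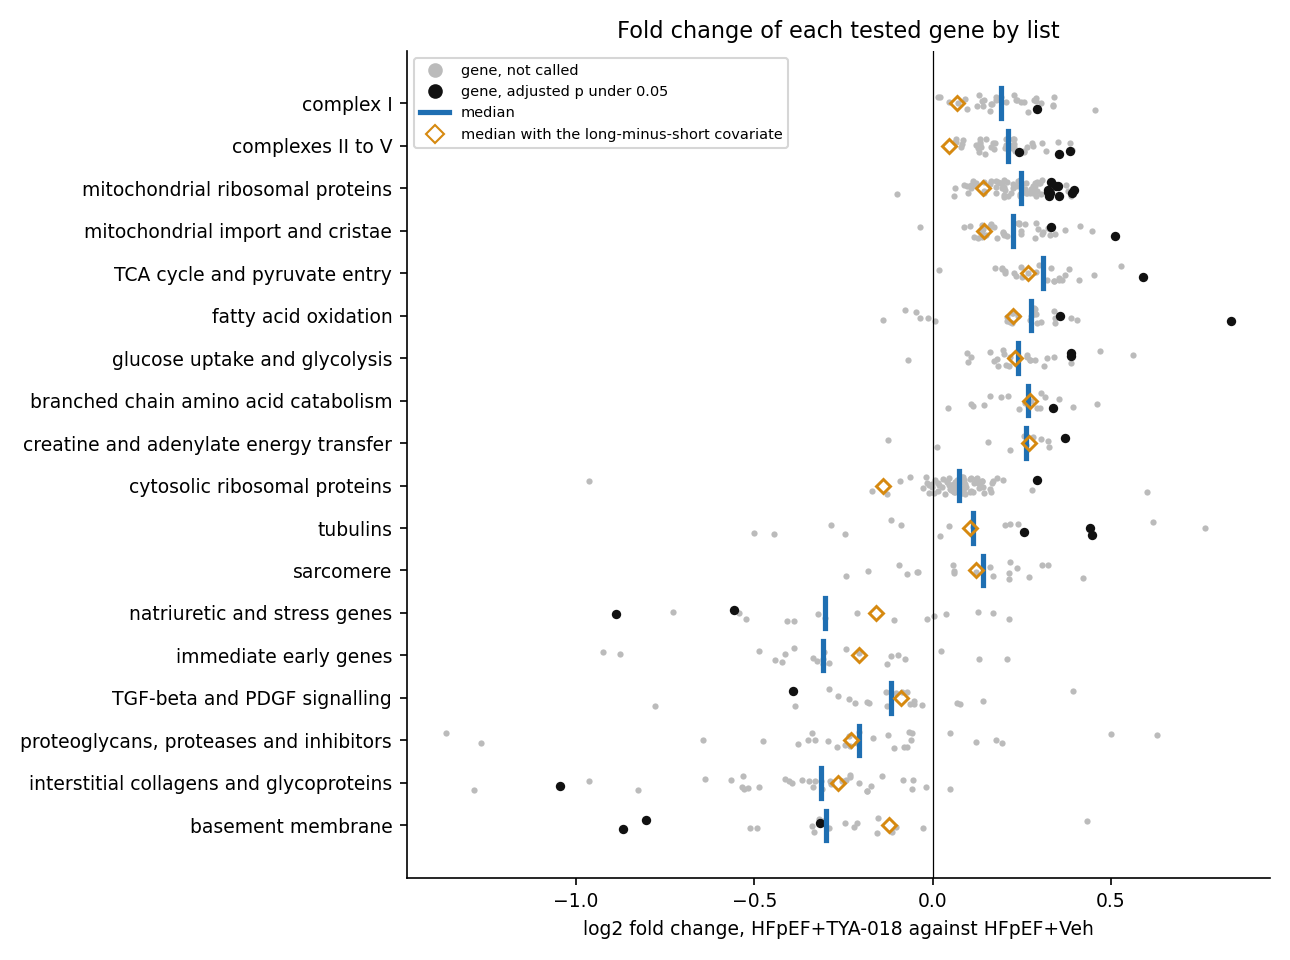
Log2 fold change between HFpEF+TYA-018 and HFpEF+Veh (horizontal axis) of every tested gene in 18 lists, with called genes in black, the median as a blue bar and the median with the long-minus-short covariate as an open diamond. Lists of energy metabolism lie to the right of 0 and matrix lists to the left, and the diamond lies nearer 0 than the bar for complexes II to V (0.05 against 0.21) and basement membrane (-0.12 against -0.30), across 0 for cytosolic ribosomal proteins (-0.14 against 0.07), and close to it for the TCA cycle (0.27 against 0.31).

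Promoters are shown for the 4 of 8 called and named genes of the respiratory chain and mitochondrial ribosome whose windows hold a match to the NRF1, ETS or YY1 motif. Of the other 4, Mrpl55, Mrps15 and Mrpl2 hold SP matches alone, and Atp5g1 holds none of the motifs searched. The windows of 300 bases run from 250 before to 50 after a start site of RefSeq on GRCm38.p6 and are written 5′ to 3′ on the gene's strand. Capitals mark matches on either strand to GCGCATGCG (NRF1), CCGGAAG (ETS), AAGATGGC (YY1), TGACGTCA (CRE), TCAAGGTCA (ERR), CTAAAAATA (MEF2) or GGGCGG (SP). The windows are chr6:50566520-50566819 on the minus strand for Cycs, chr19:7217567-7217866 on the minus strand for Cox8a, chr10:80249199-80249498 on the plus strand for Ndufs7 and chr8:71464676-71464975 on the plus strand for Mrpl34.
Cycs: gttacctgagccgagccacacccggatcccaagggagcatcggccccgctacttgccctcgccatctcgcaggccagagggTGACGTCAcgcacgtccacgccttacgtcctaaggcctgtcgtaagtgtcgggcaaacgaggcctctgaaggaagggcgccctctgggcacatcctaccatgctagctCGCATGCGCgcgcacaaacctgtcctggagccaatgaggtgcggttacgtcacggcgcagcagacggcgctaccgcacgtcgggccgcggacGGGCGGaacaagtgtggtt
Cox8a: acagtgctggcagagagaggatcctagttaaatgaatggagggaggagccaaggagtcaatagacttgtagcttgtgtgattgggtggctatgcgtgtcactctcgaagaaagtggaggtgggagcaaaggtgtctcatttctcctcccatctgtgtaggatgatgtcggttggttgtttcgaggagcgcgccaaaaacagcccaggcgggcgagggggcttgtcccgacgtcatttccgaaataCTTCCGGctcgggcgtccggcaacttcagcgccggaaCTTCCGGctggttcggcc
Ndufs7: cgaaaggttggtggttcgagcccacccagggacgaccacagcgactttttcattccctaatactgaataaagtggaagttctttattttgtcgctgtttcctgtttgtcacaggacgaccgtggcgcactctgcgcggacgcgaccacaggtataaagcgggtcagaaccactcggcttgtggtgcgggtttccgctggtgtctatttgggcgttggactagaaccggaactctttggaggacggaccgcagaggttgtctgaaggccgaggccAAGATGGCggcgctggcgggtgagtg
Mrpl34: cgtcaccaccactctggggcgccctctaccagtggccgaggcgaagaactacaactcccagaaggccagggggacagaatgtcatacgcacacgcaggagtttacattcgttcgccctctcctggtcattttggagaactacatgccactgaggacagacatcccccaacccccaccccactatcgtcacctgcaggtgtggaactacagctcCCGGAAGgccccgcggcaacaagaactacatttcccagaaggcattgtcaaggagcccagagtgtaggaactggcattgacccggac

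The Cycs window held an NRF1, a CRE and an SP match, the Cox8a window a pair of ETS matches, the Ndufs7 window a YY1 match and the Mrpl34 window an ETS match. Of 77 mitochondrial ribosomal genes 68 matched a promoter entry, with 74 windows, of which 33.8% held the ETS motif, 16.2% the YY1 motif and 9.46% the NRF1 motif. Over the 13069 windows of all tested genes with an entry the shares were 15.7%, 4.01% and 3.39%, and over all 32851 windows 8.86%, 2.75% and 1.75%. For complexes II to V (35 windows) the shares were 31.4%, 5.71% and 17.1%, and for complex I (33 windows) 12.1%, 18.2% and 6.06%. The windows of genes called higher (118) held them in 18.6%, 5.93% and 7.63%. No window of the interstitial matrix list (33) or of the basement membrane list (15) held any of these 3 motifs. A match describes the letters in the window and does not show that a factor was bound there.

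Most genes of fuel use had positive log2 fold changes, and few passed the test (0.884% of all genes were called higher). Library size scaling gave smaller medians, of 0.19 for the TCA cycle and pyruvate entry, 0.15 for fatty acid oxidation and 0.12 for glycolysis. For branched chain, creatine and ketone genes they were 0.14 each, against -0.12 for all genes. All 26 tested genes of the TCA cycle and pyruvate entry were positive, from 0.02 to 0.59 with a median of 0.31, and remained so with the covariate at a median of 0.27. The mean list level ran from -0.30 to 0.36 in vehicle and from -0.10 to 0.60 under TYA-018, and the groups overlapped widely. The single call was Pdp2, a phosphatase that activates pyruvate dehydrogenase, at 6.75 to 15.6 CPM in vehicle (median 10.7) and 13.8 to 19.6 CPM under TYA-018 (median 15.5), a rise of 0.59 ± 0.14 (SE, adjusted p = 0.0343). Citrate synthase (Cs), at 0.34, and the pyruvate carrier subunit Mpc1, at 0.36, did not pass (adjusted p = 0.18 for both).

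Fatty acid oxidation genes were positive in 24 of 29 cases with a median of 0.28 (0.23 with the covariate), and 2 were called higher, beside 0.884% of all genes. Ucp3, a mitochondrial anion carrier induced by fatty acids, lay at 22.0 to 39.3 CPM in vehicle (median 36.2) and 23.2 to 78.5 CPM under TYA-018 (median 61.3). It rose by 0.84 ± 0.22 (SE, adjusted p = 0.0441), with 10 of 11 libraries above the vehicle range and 1 at its lower end, and kept its call in 4 of 18 tests that left out a library. Acot13, a mitochondrial acyl-CoA thioesterase, rose by 0.36 ± 0.09 (adjusted p = 0.0332), from a median of 211 to 266 CPM.

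Glucose uptake and glycolysis genes were positive in 25 of 26 cases with a median of 0.24 (0.23 with the covariate). Aldoa, the muscle aldolase, lay at 1665 to 2185 CPM in vehicle (median 1876) and 2075 to 2915 CPM under TYA-018 (median 2486), and rose by 0.39 ± 0.09 (SE, adjusted p = 0.03). Gapdh rose by 0.39 ± 0.10 (adjusted p = 0.0358), from a median of 2801 to 3615 CPM. Slc2a4, the insulin-responsive glucose transporter GLUT4, lay at 159 to 237 CPM in vehicle (median 206) and 204 to 300 CPM under TYA-018 (median 265), with 9 of 11 libraries above the vehicle range, and missed the threshold at 0.39 ± 0.11 (adjusted p = 0.0574). With library size scaling the log2 fold changes of Aldoa and Gapdh were 0.27 each and neither passed (adjusted p = 0.060 and 0.079).

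The next lists gave 0 or 1 call each, beside 0.884% of all genes called higher. Branched chain amino acid catabolism was positive for all 19 genes with a median of 0.27 (0.27 with the covariate) and 1 call, Hsd17b10, a mitochondrial dehydrogenase of isoleucine breakdown, which rose by 0.34 ± 0.09 (SE, adjusted p = 0.0483). Of the 19 genes 2 had an unadjusted p under 0.05 in edgeR. The mean list level ran from -0.31 to 0.56 in vehicle and from -0.13 to 0.59 under TYA-018, and the groups overlapped widely. Creatine and adenylate energy transfer was positive for 12 of 13 genes with a median of 0.26 (0.27 with the covariate) and 1 call. This was Slc25a4, the ADP/ATP carrier of heart mitochondria, at 3299 to 4088 CPM in vehicle (median 3897) and 3948 to 5600 CPM under TYA-018 (median 5184), a rise of 0.37 ± 0.09 (adjusted p = 0.03). All 7 ketone genes were positive with a median of 0.26 (0.23 with the covariate) and 0 calls (edgeR, 1 with an unadjusted p under 0.05). The PPAR, ERR and PGC-1 regulators, which govern many of these genes, had a median of 0.05 with 10 of 18 positive and 0 calls in edgeR (3 with an unadjusted p under 0.05), and a median of 0.17 with 13 of 18 positive with the covariate. Lipid droplet and lipid synthesis genes had a median of 0.11 (0.11 with the covariate and -0.01 with library size scaling, where that of the regulators was -0.07), with 1 call among 29, the lipid droplet protein Cidea, which rose by 0.30 ± 0.08 (adjusted p = 0.0471).

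**Figure D5:**
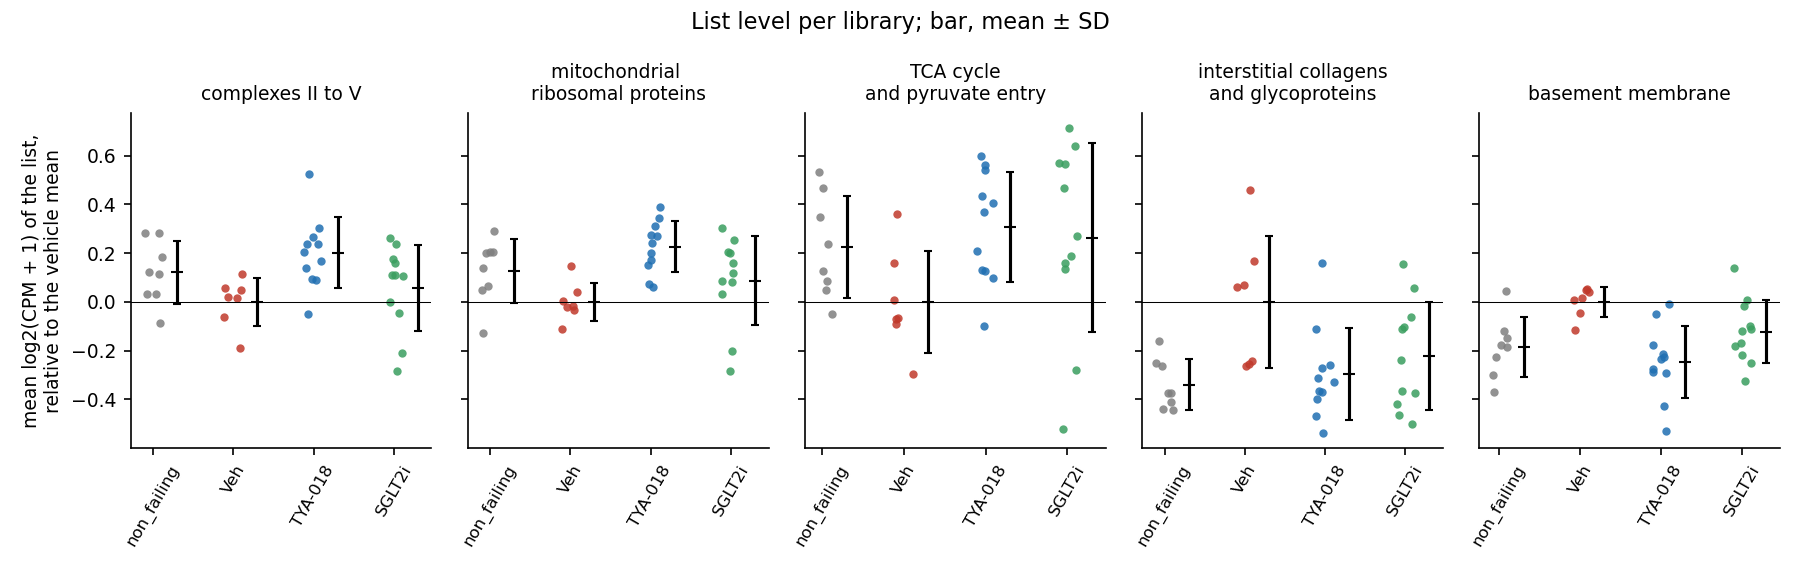
Mean log2(CPM + 1) of 5 lists in every library of the 4 groups, relative to the mean of the vehicle libraries (vertical axis), with mean and SD. TYA-018 points lie above most vehicle points for mitochondrial ribosomal proteins (0.06 to 0.39 against -0.11 to 0.15) and below them for basement membrane (-0.53 to -0.01 against -0.11 to 0.05), and HFpEF+SGLT2i and non_failing points overlap both.

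The single genes with the strongest evidence for a rise belonged to varied functions. Slc46a3, a lysosomal transporter (chromosome 5, 147878437 to 147894815), lay at 5.97 to 8.17 CPM in vehicle (median 6.65) and 7.66 to 14.5 CPM under TYA-018 (median 12), and rose by 0.72 ± 0.13 (SE, adjusted p = 0.0174). Ano4, of the anoctamin family of calcium-activated membrane proteins (chromosome 10, 88948994 to 89344762), lay at 1.41 to 3.24 CPM in vehicle (median 2.39) and 2.85 to 9.30 CPM under TYA-018 (median 5.08). It rose by 1.08 ± 0.20 (adjusted p = 0.0174), and 10 of 11 libraries lay above the vehicle range. Ano4 was the only named gene that kept its call with the long-minus-short covariate, at 1.22 (adjusted p = 0.013), while its adjusted p without V2530 was 0.063.

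Of the next 12 higher genes, all at an adjusted p of 0.0224, 5 had all 11 TYA-018 libraries above every vehicle library. Over all genes tested 0.167% had groups that did not overlap, and the 12 were ranked by p in the same libraries, so nothing is read from that count. These were Hist1h2bc, a histone H2B gene (0.36 ± 0.07), Mlf1, which encodes a nucleocytoplasmic adaptor of muscle (0.61 ± 0.13), the replication licensing inhibitor Gmnn (0.74 ± 0.15), the nucleotide hydrolase Nudt22 (0.35 ± 0.07) and the predicted gene Gm9747 (0.65 ± 0.14). Mlf1 lay at 40.3 to 55.4 CPM in vehicle (median 45.9) and 56.5 to 99.3 CPM under TYA-018 (median 71.3). Fgf9, a growth factor expressed in heart, lay at 3.24 to 6.44 CPM in vehicle (median 4.83) and 5.83 to 9.88 CPM under TYA-018 (median 8.64), a rise of 0.73 ± 0.15. Idh1, the cytosolic isocitrate dehydrogenase that makes NADPH, rose by 0.39 ± 0.08 from a median of 29.0 to 36.3 CPM. Pla2g12a, a secreted phospholipase, rose by 0.54 ± 0.11, and Galm, the mutarotase of galactose metabolism, by 0.53 ± 0.11. Itfg3, Leng1 and 1700021F05Rik rose by 0.64 ± 0.13, 0.31 ± 0.06 and 0.33 ± 0.07. None of these 12 genes was called without V2530, where their adjusted p was 0.067 to 0.072, nor with the covariate, where it was 0.18 to 0.24.

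Among cardiac stress genes the natriuretic peptide gene Nppb (chromosome 4, 147985788 to 147987205), which encodes BNP and is raised by wall stress, was lower under TYA-018. It lay at 216 to 444 CPM in vehicle (median 272) and 72.8 to 242 CPM under TYA-018 (median 170), and 10 of 11 TYA-018 libraries lay below the lowest vehicle library. The gene fell by 0.89 in log2 units (SE 0.23, adjusted p = 0.0404), kept its call in 7 of 18 tests that left out a library and reached an adjusted p of 0.11 without V2530. With the covariate the log2 fold change was -1.01 (adjusted p = 0.18). Nppb is among the short transcripts, at 540 bases, whose median log2 fold change was positive. Its neighbour Nppa, the atrial peptide gene, overlapped fully at 28.2 to 170 CPM in vehicle and 37.3 to 160 CPM under TYA-018, at a log2 difference of -0.02 ± 0.37 (adjusted p = 0.983).

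The promoter of Nppb, at chr4:147985650-147985949 on the plus strand, is shown because the gene fell while the median of transcripts of similar length was positive. It held none of the 7 motifs searched.
Nppb: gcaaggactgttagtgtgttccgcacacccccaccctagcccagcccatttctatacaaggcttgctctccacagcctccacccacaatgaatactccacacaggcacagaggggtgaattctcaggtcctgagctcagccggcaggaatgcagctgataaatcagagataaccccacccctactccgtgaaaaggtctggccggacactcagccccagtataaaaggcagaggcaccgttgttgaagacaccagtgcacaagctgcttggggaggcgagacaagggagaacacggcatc

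Synpo2l, an actin-associated protein of the Z-disc, lay at 81.6 to 129 CPM in vehicle (median 110) and 40.7 to 91.4 CPM under TYA-018 (median 71.1), and fell by 0.56 in log2 units (SE 0.12, adjusted p = 0.0224). Myh7, the slow myosin heavy chain of the fetal programme, lay at 170 to 346 CPM in vehicle (median 316) and 126 to 366 CPM under TYA-018 (median 200). The groups overlapped, and it did not pass (-0.32 ± 0.20, adjusted p = 0.385). Of 17 stress genes tested 12 were negative, 2 were called lower (0.536% over all genes) and the median was -0.30 (-0.16 with the covariate). Members that did not pass included the mechanosensitive genes Ankrd1 (-0.41, adjusted p = 0.31) and Ctgf (-0.52, adjusted p = 0.11), and skeletal alpha-actin, Acta1 (0.04, adjusted p = 0.95). Immediate early genes, which respond to stimulation and to handling of tissue, were negative in 19 of 22 cases with a median of -0.31 (-0.21 with the covariate) and 0 calls (edgeR, 4 with an unadjusted p under 0.05). Sarcomere genes had a median of 0.14 with 0 calls among 20, and calcium handling genes 0.01 with 0 calls among 18 (8 and 4 with an unadjusted p under 0.05), while library size scaling gave 0.02 and -0.11 and the covariate 0.12 for both. Library size scaling also called 1 sarcomere gene and 3 calcium handling genes lower. Ion channel genes were positive in 18 of 21 cases with a median of 0.24 (0.37 with the covariate) and 0 calls (8 with an unadjusted p under 0.05). Their median ran from 0.15 to 0.38 when 1 library was left out, and was 0.12 with library size scaling.

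Most genes of the extracellular matrix had negative log2 fold changes, with few calls. Of 37 tested genes for interstitial collagens and glycoproteins 36 were negative, from -1.29 to 0.05 with a median of -0.31, 23 had an unadjusted p under 0.05 and 1 was called lower, beside 0.536% of all genes. Medians of all genes in the same length classes averaged -0.05. With the covariate 34 of 37 were negative with a median of -0.26, and with library size scaling all 37 were negative with a median of -0.43 and 13 calls. The mean list level ran from -0.26 to 0.46 in vehicle and from -0.54 to 0.16 under TYA-018, and the groups overlapped widely.

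The structural collagen genes did not pass. Col1a1 (chromosome 11, 94936224 to 94953042) lay at 40 to 73.5 CPM in vehicle (median 49.8) and 23.5 to 76.5 CPM under TYA-018 (median 35.6), at a log2 difference of -0.31 ± 0.17 (SE, adjusted p = 0.325). Col3a1 (chromosome 1, 45311538 to 45349706) lay at 57.1 to 137 CPM in vehicle (median 82.6) and 50.5 to 115 CPM under TYA-018 (median 66.4), at -0.39 ± 0.18 (adjusted p = 0.222). In both genes the groups overlapped, and the highest Col1a1 value was a TYA-018 library. The called gene was Mfap4, a microfibril-associated glycoprotein of elastic fibres, at 7.68 to 45.4 CPM in vehicle (median 15.8) and 5.35 to 15.4 CPM under TYA-018 (median 8.56). It fell by 1.05 in log2 units (SE 0.28, adjusted p = 0.0471), only 4 of 11 TYA-018 libraries lay below the vehicle range, and the adjusted p without V2530, the highest library, was 0.22.

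Basement membrane genes were negative in 19 of 20 cases with a median of -0.30, and 3 were called lower, as were 0.536% of all genes tested. The transcripts are long, with a median of 5006 bases, and all genes in their length classes averaged -0.08. With the covariate 16 of 20 were negative with a median of -0.12. Calls in edgeR fell to 0 with the covariate and without V2528 or V2530. They fell to 1 without V2526, V2527, V2529, V2532, V2547 or V2549, and library size scaling gave 7. Lama2, the laminin chain of the muscle basement membrane (chromosome 10, 26980036 to 27619758), lay at 20.8 to 28 CPM in vehicle (median 24.0) and 16.7 to 24.3 CPM under TYA-018 (median 19.6), with 9 of 11 libraries below the vehicle range. It fell by 0.32 in log2 units (SE 0.08, adjusted p = 0.0343). Lama3, another laminin alpha chain, fell by 0.80 (SE 0.18, adjusted p = 0.0236) from a median of 4.72 to 2.60 CPM, and Col4a6, a minor type IV collagen chain, by 0.87 (SE 0.23, adjusted p = 0.0499) from 2.00 to 1.02 CPM. The major type IV chains Col4a1 and Col4a2 did not pass (-0.31 and -0.29, adjusted p = 0.25 and 0.27). The mean list level ran from -0.11 to 0.05 in vehicle and from -0.53 to -0.01 under TYA-018.

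Tgfbr1, the type I receptor for transforming growth factor beta, lay at 10.2 to 16.9 CPM in vehicle (median 11.9) and 8.20 to 11.5 CPM under TYA-018 (median 9.39). It fell by 0.39 in log2 units (SE 0.09, adjusted p = 0.0299), with 7 of 11 libraries below the vehicle range. In the main test it was the only call among 22 genes of TGF-beta and PDGF signalling, beside 0.536% of all genes called lower. Of these 22, 18 were negative with a median of -0.12 (-0.09 with the covariate). Library size scaling called 5 of them lower and putting V2523 back 2, while the covariate, or leaving out V2530, gave 0 calls in edgeR. The ligand genes Tgfb1, Tgfb2 and Tgfb3 had log2 fold changes of -0.05, -0.27 and -0.39 and did not pass (adjusted p = 0.80, 0.13 and 0.076). Proteoglycans, proteases and inhibitors were negative in 23 of 29 cases with a median of -0.21 (-0.23 with the covariate) and 0 calls (edgeR, 7 with an unadjusted p under 0.05), and -0.10 without V2530.

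Markers of cell types were set beside these lists. Of 10 fibroblast markers, of which 6 also stand in the matrix or TGF-beta lists (Col1a1, Col1a2, Mfap5, Dcn, Lum and Pdgfra), 9 were negative with a median of -0.19 (-0.23 with the covariate) and 0 calls (4 with an unadjusted p under 0.05). Their summed level was 1096 to 2316 CPM in vehicle and 972 to 2064 CPM under TYA-018, with none at 0. Endothelial markers were negative in 9 of 10 cases with a median of -0.14 (-0.11 with the covariate), and cardiomyocyte markers positive in 7 of 10 with a median of 0.17 (0.10 with the covariate), both with 0 calls in edgeR (2 and 5 with an unadjusted p under 0.05). The part of cell composition in the matrix and mitochondrial values was not tested.

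Further genes were called lower. Without V2530 only Tnnt3 kept its call, and with the covariate 0 genes were called lower. Of the 74 genes called lower 18 were over 6000 bases long, against 1 of the 122 called higher. Cdk12, a kinase of transcription elongation, lay at 10.3 to 13.8 CPM in vehicle (median 11.8) and 6.83 to 10.7 CPM under TYA-018 (median 9.33), and fell by 0.38 in log2 units (SE 0.08, adjusted p = 0.0224). Bptf, a subunit of the NURF chromatin remodeller, fell by 0.36 (SE 0.08, adjusted p = 0.0224) from a median of 30.5 to 23.4 CPM. For both genes 10 of 11 TYA-018 libraries lay below the vehicle range. Setd2, the histone H3 lysine methyltransferase, fell by 0.65 (SE 0.15), the exonuclease gene Xrn1 by 0.31 (SE 0.07) and the zinc finger gene Zbtb1 by 0.38 (SE 0.08), at adjusted p of 0.0299, 0.03 and 0.0236.

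Pkd1, the polycystin gene, whose transcript is the longest of the named genes at 13233 bases, lay at 21.3 to 46.2 CPM in vehicle (median 32.9) and 8.05 to 26.4 CPM under TYA-018 (median 18.3), a fall of 0.79 (SE 0.18, adjusted p = 0.0254). Amotl1, a junctional scaffold protein, fell by 0.26 (SE 0.06, adjusted p = 0.0245). Lfng, a glycosyltransferase that modifies Notch receptors, fell by 0.61 (SE 0.13, adjusted p = 0.0224) from a median of 6.03 to 3.87 CPM, and the centrosomal gene Lrrcc1 by 0.51 (SE 0.11, adjusted p = 0.0224) from 19.1 to 13.6 CPM. Igfbp3, a binding protein for insulin-like growth factors, fell by 0.68 (SE 0.16, adjusted p = 0.03), but its highest vehicle value of 53.6 CPM came from V2530, only 4 of 11 TYA-018 libraries lay below the vehicle range, and the adjusted p without that library was 0.12. The predicted gene Gm10800 and the transcript 1500009L16Rik fell by 1.55 (SE 0.34) and 0.66 (SE 0.15), both at an adjusted p of 0.0224. The skeletal muscle genes Tnnt3 and Atp2a1 were also called lower, at -3.16 ± 0.59 and -3.50 ± 0.72 (adjusted p = 0.0174 and 0.0224). Their vehicle maxima of 22.6 and 28 CPM were both V2532, and without that library Tnnt3 had an adjusted p of 0.28 and Atp2a1 a log2 fold change of 0.65.

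Lists of immunity, proteostasis and stress signalling gave 0 calls in edgeR with TMM scaling and V2523 left out, with small medians. These were inflammatory cytokines and adhesion (-0.06, 2 of 28 with an unadjusted p under 0.05), interferon response (-0.05, 2 of 25), antigen presentation (-0.06, 1 of 16), the unfolded protein and integrated stress response (0.04, 3 of 28), cytosolic chaperones (0.05, 0 of 19) and autophagy and lysosome (0.07, 3 of 32). Proteasome genes were positive in 36 of 38 cases with a median of 0.13 (0.05 with the covariate) and antioxidant genes in 26 of 29 with a median of 0.17 (0.07 with the covariate), also with 0 calls, 12 and 9 having an unadjusted p under 0.05. With library size scaling the medians of the unfolded protein, chaperone and autophagy lists became -0.09, -0.06 and -0.06, and that of the proteasome 0.00, while the inflammatory, interferon and antigen presentation lists had -0.18, -0.17 and -0.18. The antioxidant median under that scaling was 0.05, with 17 of 29 genes positive. With V2523 put back, 2 inflammatory genes and 1 unfolded protein gene were called lower. Library size scaling called 2 inflammatory, 3 unfolded protein and 1 antioxidant gene, all lower. With the covariate the medians were -0.08, -0.10 and -0.19 for the immune lists and 0.02, 0.04 and 0.02 for the unfolded protein, chaperone and autophagy lists. Clock genes had a median of -0.08 (5 of 19 with an unadjusted p under 0.05) and glucocorticoid-responsive genes -0.14 (2 of 15), both with 0 calls. With the covariate the clock median changed sign to 0.11, with 12 of 19 positive, and the glucocorticoid median was -0.01.

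The same genes were then set beside the other groups. Between HFpEF+TYA-018 and HFpEF+SGLT2i, 0 of 13801 genes were called in edgeR (0%), the smallest adjusted p was 0.0668, shared by Ano4, and 1871 genes had an unadjusted p under 0.05. No named gene was thus shown to respond differently to the drugs. Ano4 lay at 1.66 to 3.86 CPM under SGLT2i, with a log2 difference of 0.87 ± 0.17 (SE), Tubb4b at 157 to 229 CPM (0.35 ± 0.08, adjusted p = 0.078) and Slc46a3 at 5.45 to 10.2 CPM (0.49 ± 0.11, adjusted p = 0.083). Nppb lay at 109 to 264 CPM under SGLT2i, with a log2 difference of -0.16 ± 0.20 (adjusted p = 0.82). In this contrast too the median log2 difference was 0.19 among genes of up to 500 bases and -0.12 among those over 6000 bases, and the long-minus-short value of HFpEF+SGLT2i was 0.24 to 0.51.

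The vehicle libraries are shared by the comparison of HFpEF+Veh with non_failing, which called 620 genes (4.49%), so values are only given side by side. The non_failing libraries carried liver transcripts as well, with Alb at 13.3 to 235 CPM and a hepatocyte sum of 68.9 to 742 CPM, and 21 of the 26 hepatocyte markers were among the 339 genes called lower in vehicle, and the median log2 fold change over all 26 was -3.26. The part of liver RNA in the 620 calls was not tested. Nppb was at 0.61 on the log2 scale in vehicle against non_failing hearts (adjusted p = 0.16), which lay at 102 to 281 CPM, beside the fall of 0.89 under TYA-018. Mlf1 was at -0.87 in vehicle against non_failing (adjusted p = 8.9e-05) beside 0.61 under TYA-018, Lrrcc1 at 0.93 (adjusted p = 2.7e-06) beside -0.51, Ndufa12 at -0.34 (adjusted p = 0.012) beside 0.29, and Mfap4 at 1.30 (adjusted p = 0.0077) beside -1.05. Tubb4b was at -0.14 in vehicle against non_failing (adjusted p = 0.44) beside 0.45, and Slc46a3 at -0.10 (adjusted p = 0.72) beside 0.72. The median over interstitial matrix genes was 0.31 in vehicle against non_failing beside -0.31 under TYA-018, and over mitochondrial ribosomal genes -0.12 beside 0.25. Fatty acid oxidation and the cytosolic ribosome had the same sign in both, with 0.29 (8 of 29 called higher) beside 0.28 for the former and 0.10 beside 0.07 for the latter. Cidea was higher in both, at 0.66 (adjusted p = 2.9e-06) in vehicle against non_failing and 0.30 under TYA-018.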

How the data were processed

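RNA of 38 left ventricles was sequenced with a stranded polyadenylated kit. The authors trimmed reads with fastp, quantified transcripts with Salmon 1.6.0 against GENCODE mouse transcripts of GRCm38 (the labels name hg38, yet all genes are mouse) and summed them to genes. The deposited expected counts are estimated reads per gene, with reads shared between paralogs divided by a model, the deposited TPM values are scaled by the authors to transcripts per 1000000, and a deposited table of effective lengths, another measure in bases, accompanies them. Read length, sex and duration of treatment differ between the labels, title and methods, and entered no test. Columns that matched no sample numbered 0, and 19 symbols that had become date serials were not named. Coordinates follow GENCODE M21 or RefSeq on GRCm38.

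Expected counts were rounded and tested with edgeR 4.0.16 in R 4.3.3 (filterByExpr, TMM, quasi-likelihood F test, 4 groups, no covariates, Benjamini-Hochberg over 13801 genes, called under 0.05). A standard error is the log2 fold change over the root of F. Where nothing else is said, p-values test a difference between groups against the spread between libraries, estimated over all 37 libraries in the model. DESeq2 1.42.0, limma 3.58.1 and sva 3.50.0 served as alternatives. Exact permutation tests enumerated the 31824 splits of 11 against 7 libraries, and fewer or more where libraries were left out or put back. Named genes were 9 chosen by name (Hdac6, Nppa, Nppb, Myh7, Col1a1, Col3a1, Ndufa12, Slc2a4 and Tubb4b), up to 15 called genes per direction ranked by p, with average log2 CPM no lower than 1, and up to 4 called genes per list, all outside a liver set (the hepatocyte list and genes whose CPM in V2523 was 4 times or more that of each remaining vehicle library). Further list members are named as examples chosen after their values were seen. Members, lists and tests were chosen with earlier results of these data known. As a check for duplicated libraries, the counts of 76 pairs of libraries within a group were compared, and the lowest chi-square per degree of freedom was 20.9. The test was also run on simulated counts with known changes. These held no length pattern and no library with RNA of another tissue, so they do not bear on the effect of those features.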

Additional observations from a re-analysis of the deposited data

Results flagged for a closer look

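Several vehicle values stood apart from the other 6 libraries, by a gap above the 95% limit of Dixon's test. Of 69 sets of 7 vehicle values tested 7 stood out in this way. The limit gives about 1 in 20 for independent sets that were not selected. These sets share the same libraries, and 59 of the 66 named genes were called in them, so nothing is read from the count. V2532 was set apart by its depth of 57.7 M counts, its long-minus-short value of 0.68, Cox8a at 79.3 CPM, and the skeletal muscle genes Tnnt3 at 22.6 CPM and Atp2a1 at 28 CPM. V2530 was set apart by Igfbp3 at 53.6 CPM and Mfap4 at 45.4 CPM. Outside the main test, Alb in V2523 reached 1033 CPM, above the other vehicle libraries. No named gene passed the test of a difference between the responses to TYA-018 and to SGLT2i.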

How the results depend on the processing

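Under scaling by library size, no filter, the DESeq2 Wald test, limma on log2(TPM + 1) and log2(TPM + 0.1), the length offset, 1 surrogate variable, the long-minus-short covariate and without V2532 and V2555 (the covariate and this pair were chosen after seeing the data), the genes called numbered 848, 94, 573, 89, 58, 81, 1706, 3 and 72, the higher ones 33, 53, 333, 7, 6, 47, 1124, 3 and 49, and the lower ones 815, 41, 240, 82, 52, 34, 582, 0 and 23, with 151 lower when V2523 was put back. In the same order, calls in complex I were 0, 0, 7, 0, 0, 0, 12, 0 and 0 (3 with V2523 and 4 in a model of the 2 groups), in complexes II to V 0, 0, 5, 0, 0, 2, 17, 0 and 0, among mitochondrial ribosomal genes 0, 7, 21, 0, 0, 4, 45, 0 and 1, among interstitial matrix genes 13, 0, 4, 0, 0, 0, 7, 0 and 1 (0 in the model of the 2 groups), and among basement membrane genes 7, 1, 5, 3, 3, 1, 6, 0 and 1. Leaving out single libraries gave 1 to 477 calls, 0 to 291 higher, 1 to 186 lower, and 0 to 5, 0 to 4, 0 to 19, 0 to 5 and 0 to 4 in the 5 lists. The causes were not tested. The surrogate variable and the covariate moved the count in opposite directions. The log2 fold change of Nppa, never called, changed sign with the covariate (0.18) and in 7 leave-one-out tests (range over all such tests -0.18 to 0.18, with 0.03, 0.18, 0.05, 0.01, 0.04, 0.04 and 0.06 where it was positive), and the log2 fold change of Atp2a1 reversed in DESeq2 (0.53), without V2532 (0.65, range over such tests -3.72 to 0.65) and without V2532 and V2555 (0.69). No other gene named by the rule changed sign under these settings, and further list members were not followed one by one. The mitochondrial share difference ran from 0.568 to 1.86 percentage points over single libraries, was 0.268 for TPM and 1.61 with V2523, and passed in none. No paired analysis was possible because the library numbers differ between the groups. Low genes such as Col4a6, near 1 CPM, rest on few counts, but the SE of the more abundant Nppa, 0.37, was larger.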
